A study of Homo sapiens with 6 samples.

Results

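The genes described here are 50 enzymes of drug and steroid metabolism, taken as a list of symbols. They come from the cytochrome P450, UDP-glucuronosyltransferase (UGT), sulfotransferase (SULT), N-acetyltransferase (NAT), alcohol dehydrogenase (ADH), aldehyde dehydrogenase (ALDH), flavin monooxygenase and steroid dehydrogenase families. This list, and the further gene lists set beside it, were chosen with earlier results of these data known. Their shares of called genes therefore describe the lists and test nothing about them. All 50 were found by symbol among the 60240 Ensembl genes of the deposited table. They were followed in HepG2, a human hepatocellular carcinoma line, in 3 control cultures and 3 cultures that received 100 ng/ml recombinant GDF11 for 24 h. GDF11 is a secreted ligand of the TGF-beta family. Both groups grew in high glucose medium with serum, and the labels name no genetic change of the line. The labels call the control cultures only controls and name no vehicle, and they call the cultures biological replicates. One tumour line stands here for hepatocytes, so the values describe HepG2 and not normal liver.

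Hepatocytes clear drugs and steroids in steps. P450 enzymes of the endoplasmic reticulum, which draw electrons from the reductase POR, and the alcohol, aldehyde and steroid dehydrogenases oxidise or reduce a compound. UGTs, SULTs and NATs then attach a polar or acetyl group, and transporters export the product. The transcription of these genes in liver is known to depend on the xenobiotic receptors PXR (gene NR1I2) and CAR (NR1I3), on the aryl hydrocarbon receptor AHR, and on hepatocyte factors such as HNF4A. HepG2 cells are known for low levels of many drug-metabolising P450 transcripts compared with primary hepatocytes.

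Values are those of the authors' table, log2 after variance stabilisation, where 5.52 is the lowest value and stands for no reads. Values of replicates 1, 2 and 3 are given in that order. The scale compresses differences near its lowest value, so folds are given on back-transformed normalised reads, as ratios of group means. Depth, estimated from the size of the steps between low values, was 47924100 to 53374600 reads per library. That is more than the MiSeq instrument named in the labels is known to yield, so the estimate is uncertain. The labels give RNA integrity numbers of 9.8, 9.9 and 9.6 for the controls and 9.6, 9.5 and 9.4 for GDF11, so they were lower on average with GDF11, with 9.6 in both groups, and the fits with that number as a covariate are given beside the results they change. Control replicate 3 stood between the other controls and the GDF11 libraries over many genes. On a scale with 0 at the mean of control replicates 1 and 2 and 1 at the GDF11 mean, its median position was 0.51 over 6490 tested genes, those whose 2 reference means lay 0.5 or more apart. It was 0.34 over the 21 members among them, from -0.33 for CYP2S1 to 0.72 for SRD5A1. Genes were chosen by the gap between the same 2 means, so a median between 0 and 1 comes in part from that choice.

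Over all 18723 tested genes, 11.7% were called higher and 10.8% lower (limma adjusted p under 0.05). Of 10 hepatocyte markers 0 were called higher and 5 lower, among them ALB and TTR, and their summed reads were 1516310 to 2012970 in the controls and 1234950 to 1373290 with GDF11. Of 4 cholangiocyte markers 2 were called higher (KRT19 by 1.48 ± 0.21 and KRT7 by 0.71 ± 0.18) and 1 lower (SOX9), with summed reads of 18628 to 19753 and 30465 to 34312. Of 6 fibroblast or stellate markers 1 was called higher (PDGFRB) and 0 lower. Their sums were 822 to 1555 in the controls and 1978 to 2625 with GDF11. PDGFRB alone made up most of these sums, with 751 to 1472 reads in the controls and 1915 to 2552 with GDF11. RGS5, the other tested marker of this list, differed by 0.03 and was not called. DCN was at the lowest value in the 3 controls and in GDF11 replicate 2, and COL1A2 had at most 1.21 reads in any library. LUM had at most 4.96 reads. COL3A1, too low to test, had 0 to 2.48 reads in the controls and 4.48 to 10.2 with GDF11, without overlap. The immune markers PTPRC, CD3E and MARCO were at the lowest value in all 6 libraries, and CD163 had at most 4.15 reads in any library. CD68 was well detected, with means of 2908 reads in the controls and 2784 with GDF11, and was not called. CD14 had means of 546 and 279 reads, with overlapping groups, and was not called (-0.76, limma adjusted p = 0.066). Sums of the 6 immune and Kupffer cell markers overlapped between the groups. Sums of the 5 endothelial markers were 88.3 to 132 and 68.0 to 91.5, with VWF called lower. The part of these shifts in the results below was not tested. In bulk RNA, fewer cells of a type and less RNA per cell cannot be told apart.

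GDF11-treated cells held much more RNA of CYP24A1, the vitamin D catabolic enzyme, and much less of SULT2A1, HSD17B2, UGT2B10, ADH6 and ADH4, enzymes that conjugate or oxidise steroids, amines and alcohols. Among the 50 genes, the 4 sulfotransferases and 2 alcohol dehydrogenases that passed the filter on low values fell, whereas of the P450 genes 6 rose and 5 fell. Of the 50 members, 6 rose, 14 fell, 16 were tested and not called, and 14 were too low to test. A gene was called at a limma adjusted p under 0.05 over all 18723 tested genes, of which 22.4% were called, 11.7% higher and 10.8% lower. Of the 36 tested members 16.7% were higher and 38.9% lower, in a list chosen with earlier results of these data known. The median difference of the 36 was -0.36, against 0.0056 for all tested genes. One member, UGT1A6, passed the filter through its control values alone, so its lower values with GDF11 are no support for a fall. It is among the 36. For 29 of the 36 tested members, UGT1A6 among them, the control and GDF11 values did not overlap, against 40.5% of all tested genes. The members' summed normalised reads were 114967, 116031 and 109012 in the controls and 74666, 76429 and 74540.4 with GDF11, so the groups did not overlap. Abundant members made up much of the fall. POR went from 20419 to 10653 mean reads, SULT1A1 from 13397 to 6897 and CYP2W1 from 9577 to 3451. Their calls ended with the RNA integrity covariate. ALDH1A1 and ALDH2, not called, went from 19456 to 13782 and from 8041 to 9600. Normalised totals were 55405000, 59440400 and 46103000 in the controls and 47137900, 48508300 and 44621200 with GDF11. Sums divided by these totals did not overlap either.

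**Figure D1:**
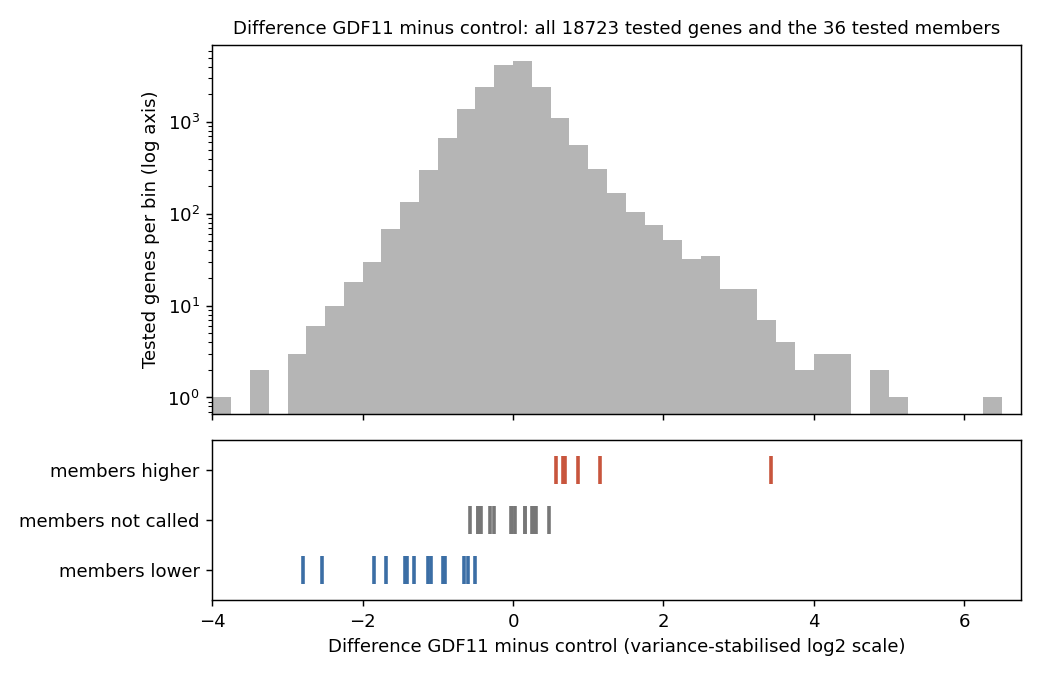
The upper panel counts all 18723 tested genes by their difference GDF11 minus control on the variance-stabilised log2 scale (log count axis), and the lower panel marks the 36 tested members by call. The 6 higher members lie between 0.57 and 3.43 and the 14 lower ones between -2.79 and -0.51.

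**Figure D2:**
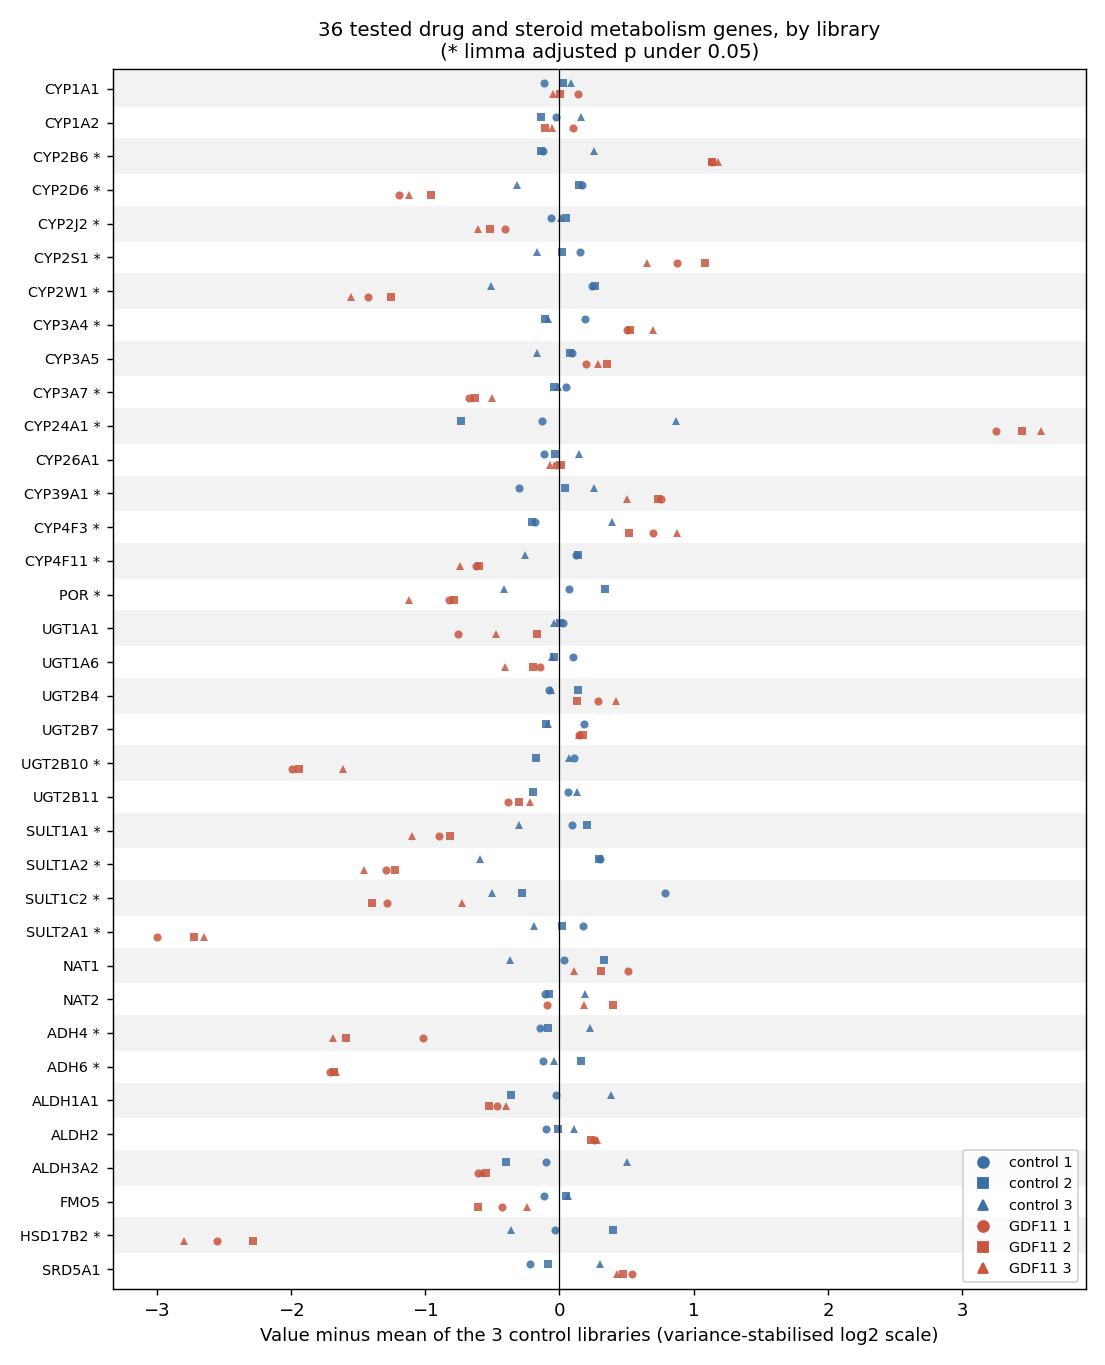
Each row is a tested member, each point a library, and the horizontal axis is the value minus the mean of the 3 controls on the variance-stabilised log2 scale; an asterisk marks a call by limma. CYP24A1 stands far to the right and SULT2A1, HSD17B2 and UGT2B10 far to the left of their controls, while CYP1A1, CYP1A2 and CYP26A1 overlap.

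P450 genes for vitamin D, retinoids, sterols and fatty acids numbered 3 higher, 1 lower, 1 not called and 1 too low to test. Of the 5 tested, 60% were higher and 20% lower, against 11.7% and 10.8% of all tested genes. CYP24A1 (ENSG00000019186.10, chromosome 20, 54143538 to 54173986 of GRCh38.p14) encodes the mitochondrial hydroxylase that inactivates calcitriol, and is known as a direct target of the vitamin D receptor. Its values were 9.48, 8.88 and 10.48 in the controls and 12.86, 13.06 and 13.20 with GDF11. Every GDF11 library was above every control, and the controls themselves were spread, with replicate 3 highest and replicate 2 lowest. The gene rose by 3.43 ± 0.35 (difference ± SE, 3 against 3, adjusted p = 0.000238), the largest increase among the tested members. Reads went from 781 ± 496 to 8363 ± 991 (SD, n = 3 each), 10.7 times the control. With the RNA integrity covariate the difference was 2.30 (adjusted p = 0.00166).

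CYP39A1, which hydroxylates oxysterols on the way to bile acids, stood at 7.003, 7.34 and 7.56 in the controls and 8.06, 8.03 and 7.81 with GDF11. The groups did not overlap, and CYP39A1 rose by 0.67 ± 0.17 (adjusted p = 0.0238), 2.06 times the control in reads. CYP4F3, a leukotriene and fatty acid hydroxylase, had values of 9.03, 9.01 and 9.61 in the controls and 9.91, 9.73 and 10.09 with GDF11. Control replicate 3 was close to the lowest GDF11 library, and the gene rose by 0.70 ± 0.20 (adjusted p = 0.0361). CYP4F11, a family member that hydroxylates fatty acids and vitamin K, moved the other way, from 9.93, 9.95 and 9.55 to 9.18, 9.21 and 9.07. It fell by 0.65 ± 0.16 (adjusted p = 0.0199), and the control reads were 1.69 times those with GDF11. CYP26A1, a retinoic acid hydroxylase, was not called (-0.03 ± 0.10, 95% interval -0.26 to 0.20). CYP2R1, a vitamin D activating hydroxylase, was too low to test, at 5.72 to 6.13 in the 6 libraries.

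These calls were unequal in firmness. Those of CYP39A1, CYP4F3 and CYP4F11 ended with the RNA integrity covariate, at 0.57 (adjusted p = 0.247), 0.23 (adjusted p = 0.603) and -0.35 (adjusted p = 0.322). They also ended when single libraries were left out. For CYP39A1 this held for control replicates 1 and 2 (difference 0.52 and 0.68 when omitted) and for GDF11 replicates 1 and 2 (0.62 and 0.63). The calls of CYP4F3 and CYP4F11 ended without any 1 library other than control replicate 3, with differences of 0.59 to 0.79 and of -0.68 to -0.59. That of CYP24A1 held in each such fit, between 3.06 and 3.86.

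The CYP3A genes lie side by side on chromosome 7 and divided by gene. CYP3A4, the main drug-oxidising P450 of adult liver, had few reads and rose. CYP3A7, the form known from fetal liver, fell. CYP3A5, the other adult form, was not called. Values of CYP3A4 were 6.74, 6.45 and 6.47 in the controls and 7.06, 7.08 and 7.25 with GDF11, those of CYP3A7 9.72, 9.63 and 9.66 in the controls and 8.996, 9.04 and 9.16 with GDF11, and those of CYP3A5 10.79, 10.78 and 10.54 in the controls and 10.90, 11.06 and 10.99 with GDF11.

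In each of the 3 genes the groups did not overlap, upward in CYP3A4 and CYP3A5 and downward in CYP3A7. CYP3A4 rose by 0.57 ± 0.13 (adjusted p = 0.0124), from 24.97 ± 8.51 to 63.3 ± 9.33 reads (SD, n = 3 each), 2.53 times the control. CYP3A7 fell by 0.60 ± 0.14 (adjusted p = 0.0149), from 725 ± 26.04 to 449 ± 32.4 reads, a 1.61-fold lower level. The difference of CYP3A5 was 0.28 ± 0.14 (adjusted p = 0.192, 95% interval -0.05 to 0.61). Both calls ended with the RNA integrity covariate, at 0.52 (adjusted p = 0.163) and -0.68 (adjusted p = 0.0585). That of CYP3A4 also ended without GDF11 replicate 3 (0.51), and that of CYP3A7 without control replicate 1 (-0.58), GDF11 replicate 1 (-0.57) or GDF11 replicate 2 (-0.59). Of the 75-base windows of CYP3A7 transcripts, 71.4% also occur in the readthrough gene CYP3A7-CYP3A51P, whose values were 6.07, 6.25 and 6.37 in the controls and 6.74, 5.52 and 6.44 with GDF11. How the quantification divided reads between the 2 is uncertain.

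The 250 bases before the start of CYP3A4 and of CYP3A7 are shown because these neighbours, alike in sequence there, changed in opposite directions. They come from RefSeq on GRCh38.p14, CYP3A4 from chr7:99784185-99784434, minus strand, and CYP3A7 from chr7:99735197-99735446, minus strand. Capitals mark bases that differ between the 2 in a global alignment.
CYP3A4: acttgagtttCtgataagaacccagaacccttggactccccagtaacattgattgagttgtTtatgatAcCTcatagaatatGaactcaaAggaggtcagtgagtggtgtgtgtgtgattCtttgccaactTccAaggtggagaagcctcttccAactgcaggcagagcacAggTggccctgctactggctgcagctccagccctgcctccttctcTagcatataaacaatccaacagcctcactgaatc
CYP3A7: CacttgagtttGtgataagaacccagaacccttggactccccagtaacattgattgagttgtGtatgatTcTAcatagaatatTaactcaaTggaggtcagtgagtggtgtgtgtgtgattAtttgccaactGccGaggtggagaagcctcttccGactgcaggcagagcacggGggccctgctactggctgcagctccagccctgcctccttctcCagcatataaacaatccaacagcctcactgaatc
Of 251 aligned columns 236 were identical, 13 were mismatches and 2 were gaps, an identity of 94.0%. CYP3A4 holds the everted repeat TGAACT, 6 bases, AGGTCA at positions 82 to 99, counted from 1 at the 5′ end of its line. Repeats of this form are known as PXR sites. Of the mismatches 2 fall inside it, G83T in TGAACT and A91T in the spacer of 6 bases (the CYP3A4 base, its position, the CYP3A7 base). CYP3A7 keeps AGGTCA, 156 bases before its start. The full repeat, searched on both strands, was found in 3 of 27305 promoters of this length (0.011%), and the members that hold it are CYP3A4 and CYP3A5. A match describes letters only, and binding was not measured.

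Among receptor genes, NR1I2, for PXR, stood at 9.35, 9.49 and 9.90 in the controls and 11.09, 10.94 and 11.13 with GDF11 and rose by 1.48 ± 0.18 (adjusted p = 0.000561). VDR, the vitamin D receptor gene, stood at 8.24, 8.96 and 8.97 in the controls and 11.04, 10.92 and 10.81 with GDF11 and rose by 2.20 ± 0.21 (adjusted p = 0.000188), 5.36 times the control in reads. NR1I3, for CAR, fell from 7.22, 7.16 and 6.72 to 6.49, 6.43 and 6.49, by 0.57 ± 0.14 (adjusted p = 0.0233). Its call ended with the RNA integrity covariate at -0.27 (adjusted p = 0.475) and without any 1 library other than control replicate 3, at -0.58 to -0.47.

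**Figure D3:**
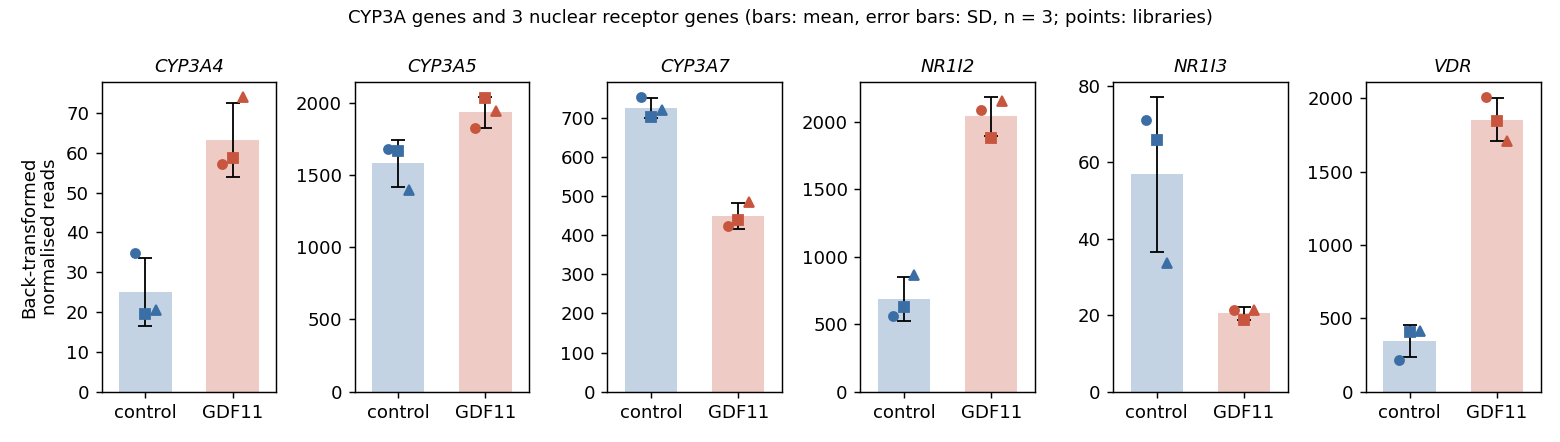
Back-transformed normalised reads of 3 CYP3A genes and 3 nuclear receptor genes in each library (points), with the group mean (bar) and SD (error bar, n = 3), each panel on its own linear axis from 0. CYP3A4, NR1I2 and VDR are higher with GDF11 and CYP3A7 and NR1I3 lower.

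Of the CYP2 family members, 2 rose, 3 fell and 4 were too low to test. Of the 5 tested, 40% were higher and 60% lower, against 11.7% and 10.8% of all tested genes. CYP2B6 (ENSG00000197408.10, chromosome 19, 40991282 to 41018398), which oxidises bupropion and efavirenz and is known as a target of CAR and PXR, was near the lowest value in the controls. It stood at 6.08, 6.06 and 6.45 in the controls and 7.33, 7.33 and 7.38 with GDF11. The 3 GDF11 libraries were close together and all above the controls, of which replicate 3 was highest. CYP2B6 rose by 1.15 ± 0.13 (adjusted p = 0.000455), which on reads was from 11.01 ± 7.54 to 83.9 ± 2.57 (SD, n = 3 each), 7.62 times the control. On log2 of reads plus 1 its difference was 2.99. CYP2S1, a P450 known mainly from epithelia outside the liver, stood at 9.03, 8.90 and 8.71 in the controls and 9.75, 9.97 and 9.53 with GDF11 and rose by 0.87 ± 0.17 (adjusted p = 0.00722), 2.02 times the control.

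The promoter of CYP2B6 is shown with the letters of 6 searched motifs in capitals, because its gene had the largest fold on reads after CYP24A1 among the higher members (chr19:40991032-40991281, plus strand).
CYP2B6: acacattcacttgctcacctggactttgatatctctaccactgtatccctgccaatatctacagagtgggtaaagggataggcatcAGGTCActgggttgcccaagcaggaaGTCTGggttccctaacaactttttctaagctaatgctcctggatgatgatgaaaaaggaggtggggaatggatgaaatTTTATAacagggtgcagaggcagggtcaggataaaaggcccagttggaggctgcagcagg
It holds AGGTCA, a single recognition element of nuclear receptors, 164 bases before the start. CAGAC, the SMAD box, is there as GTCTG from the other strand at 138, and TATAAA as TTTATA at 60. AGGTCA occurred in 12.1% of the 27305 promoters and CAGAC in 37.8%.

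CYP2W1, a P450 known from fetal gut and colon tumours, fell from 13.44, 13.46 and 12.69 to 11.77, 11.94 and 11.65. Control replicate 3 was the lowest control and still above every GDF11 library. Its fall was 1.41 ± 0.22 (adjusted p = 0.00255), and control reads were 2.77 times those with GDF11. CYP2D6, which handles codeine and many antidepressants, had values of 8.38, 8.36 and 7.90 in the controls and 7.02, 7.26 and 7.10 with GDF11. It fell by 1.09 ± 0.17 (adjusted p = 0.00217), to a level 3.43 times lower in reads. Of its transcript windows 23.6% also occur elsewhere, mostly in the pseudogene CYP2D7, whose own difference was 0.17 (adjusted p = 0.639). CYP2J2, which epoxidises arachidonic acid, stood at 8.48, 8.59 and 8.55 in the controls and 8.14, 8.03 and 7.94 with GDF11 and fell by 0.51 ± 0.14 (adjusted p = 0.0281). With the RNA integrity covariate these calls ended, at -0.85 (adjusted p = 0.0583), -0.81 (adjusted p = 0.07) and -0.42 (adjusted p = 0.238). That of CYP2J2 also ended without any 1 library other than control replicate 3, at -0.56 to -0.46.

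Several classical liver P450 genes were hardly detected. CYP2A6, the nicotine hydroxylase gene, and CYP1B1 were at the lowest value in all 6 libraries. CYP2C8, CYP2C19 and CYP2E1, the last known for ethanol and paracetamol oxidation, had at most 5.15 normalised reads in any library and were not tested. CYP1A1 and CYP1A2, targets of AHR that oxidise aromatic hydrocarbons and caffeine, were not called. CYP1A1 stood at 8.002, 8.14 and 8.20 in the controls and 8.25, 8.12 and 8.06 with GDF11, with overlapping groups and a 95% interval of the difference of -0.28 to 0.35. For CYP1A2 that interval was -0.29 to 0.25. AHR itself was spread among the controls (10.70, 10.20 and 11.76, against 11.66, 11.16 and 11.64 with GDF11) and was not called (0.60 ± 0.35, adjusted p = 0.248). It was called higher without control replicate 3 (1.04, adjusted p = 0.0042) and with library weights (0.84, adjusted p = 0.00864).

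POR, the reductase that supplies electrons to the microsomal P450 enzymes, stood at 14.36, 14.63 and 13.88 in the controls and 13.47, 13.51 and 13.17 with GDF11. The groups did not overlap, and control replicate 3 lay nearer to the GDF11 libraries than the other controls did. POR fell by 0.91 ± 0.21 (adjusted p = 0.0162), and control reads were 1.92 times those with GDF11. Its call ended with the RNA integrity covariate at -0.33 (adjusted p = 0.327), and when control replicate 1 or 2 (-0.87 and -0.74) or GDF11 replicate 1 or 3 (-0.95 and -0.80) was omitted. TMEM120A, which overlaps POR on the other strand, differed by -1.01 (adjusted p = 0.0176), and no source used here says whether reads were counted by strand.

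CYB5A, for cytochrome b5, the other electron donor of these enzymes, fell from 12.57, 12.60 and 12.28 to 10.81, 10.85 and 10.72, by 1.69 ± 0.15 (adjusted p = 0.000113). Of 15 genes that supply electrons, sulfate or sugar donors, 1 rose, 4 fell and 10 were not called. Their shares were 6.67% higher and 26.7% lower, against 11.7% and 10.8% of all tested genes. The gene that rose, UGP2, makes UDP-glucose and changed by 0.96 ± 0.20 (adjusted p = 0.00903). CYB5B, for the mitochondrial outer membrane form of the cytochrome, and SLC26A1, a sulfate transporter gene, fell by 0.65 ± 0.15 and 1.03 ± 0.22. The calls of UGP2, CYB5B and SLC26A1 ended with the RNA integrity covariate, at 0.54 (adjusted p = 0.188), -0.49 (adjusted p = 0.124) and -1.04 (adjusted p = 0.109). That of CYB5B also ended without control replicate 1 (-0.60) or GDF11 replicate 1, 2 or 3 (-0.65, -0.68 and -0.63).

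Sulfotransferases attach sulfate to phenols, steroids and bile acids. The 4 tested members fell, where 10.8% of all tested genes were called lower. SULT1E1, the estrogen sulfotransferase gene, was too low to test, at 5.52 to 6.23. SULT2A1 (ENSG00000105398.4, chromosome 19, 47870467 to 47886315), which sulfates the adrenal androgen dehydroepiandrosterone and bile acids, stood at 12.62, 12.46 and 12.26 in the controls and 9.45, 9.73 and 9.80 with GDF11. Every control was far above every GDF11 library, and the spread within each group was small beside that gap. SULT2A1 fell by 2.79 ± 0.16 (adjusted p = 1.44e-05), the largest decrease among the tested members. Reads went from 5523 ± 709.7 to 724 ± 100.2 (SD, n = 3 each), a 7.63-fold lower level. None of its 75-base transcript windows occur in another gene.

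SULT1A1, the main phenol sulfotransferase gene of liver, stood at 13.80, 13.91 and 13.40 in the controls and 12.80, 12.89 and 12.60 with GDF11, and its neighbour SULT1A2 at 12.33, 12.33 and 11.44 in the controls and 10.74, 10.81 and 10.58 with GDF11. In both, control replicate 3 was the lowest control, and the groups did not overlap. SULT1A1 fell by 0.94 ± 0.18 (adjusted p = 0.00648) and SULT1A2 by 1.32 ± 0.24 (adjusted p = 0.00525). Of their transcript windows 67.4% and 25.9% also occur in other genes, some of which overlap them on the same strand. The gene sharing most with SULT1A1, ENSG00000289755 (66.8%), and with SULT1A2, ENSG00000288656 (16.8%), had no values among the deposited genes. How reads were divided with the remaining sharing genes is uncertain. SULT1C2 was spread, at 9.995, 8.93 and 8.71 in the controls and 7.92, 7.82 and 8.48 with GDF11, with control replicate 1 far above the others. It fell by 1.14 ± 0.33 (adjusted p = 0.037), and by 0.75 without control replicate 1, where it was no longer called (adjusted p = 0.0802). That call also ended without control replicate 2 (-1.28), GDF11 replicate 1 (-1.06) or GDF11 replicate 2 (-1.01), and stood at -1.74 with library weights. With the RNA integrity covariate the calls of SULT1A1, SULT1A2 and SULT1C2 ended, at -0.53 (adjusted p = 0.108), -0.67 (adjusted p = 0.135) and -1.07 (adjusted p = 0.278).

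UGT genes encode enzymes that attach glucuronic acid. Of the 6 tested, 1 fell (16.7%, against 10.8% of all tested genes) and 5 were not called. Among those 5, UGT1A1, UGT1A6 and UGT2B11 had fewer reads in every GDF11 library than in any control. Of these, UGT1A6 passed the filter through its control values alone. UGT2B10 (ENSG00000109181.12, chromosome 4, 68815994 to 68832023), which glucuronidates nicotine and tertiary amine drugs, stood at 10.86, 10.57 and 10.82 in the controls and 8.76, 8.81 and 9.14 with GDF11. The 3 controls were close together and every GDF11 library lay far below them. It fell by 1.85 ± 0.17 (adjusted p = 0.000126), from 1641 ± 181 to 396 ± 70.7 reads (SD, n = 3 each), a 4.15-fold lower level. Of its windows 11.6% occur in other genes, 4.65% in the pseudogene UGT2B27P, which itself differed by -0.58 (adjusted p = 0.0104).

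The neighbouring UGT2B7, which conjugates morphine and steroids, stood at 10.97, 10.68 and 10.70 in the controls and 10.93, 10.96 and 10.93 with GDF11 with overlapping groups, and its 95% interval was -0.17 to 0.48. UGT2B4, for bile acids, was not called either (0.28 ± 0.14, 95% interval -0.05 to 0.60). UGT2B11 stood at 6.89, 6.62 and 6.95 in the controls and 6.44, 6.52 and 6.60 with GDF11, without overlap but also without a call (-0.30 ± 0.12, adjusted p = 0.108). Its reads were 40.4 ± 10.97 and 22.9 ± 3.86 (SD, n = 3 each), a ratio of 1.76, and it was called lower with library weights (-0.36, adjusted p = 0.0131). UGT1A1, the bilirubin enzyme, differed by -0.46 ± 0.15 (adjusted p = 0.0579) and UGT1A6 by -0.25 ± 0.10 (adjusted p = 0.11). Control reads were 2.06 and 2.51 times those with GDF11, without overlap in either gene. On log2 of reads plus 1 the differences of UGT1A1, UGT1A6 and UGT2B11 were -1.17, -1.24 and -0.77, and none was called there (adjusted p = 0.0718, 0.122 and 0.114). UGT1A6, which passed the filter through its control values alone, was called lower with library weights (-0.26, adjusted p = 0.0349). UGT1A1 was called lower with quantile normalization (adjusted p = 0.0279), with library weights, with the replicate block and without GDF11 replicate 2 (-0.61). UGT1A1 and UGT1A6 share their last exons, and 49.3% and 60.8% of their windows occur in other UGT1A genes. UGT2B15, an androgen conjugating enzyme gene, was too low to test.

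The acetyltransferase genes NAT1 and NAT2, which act on arylamines and hydrazines, overlapped between the groups and were not called. Their differences were 0.31 ± 0.20 and 0.16 ± 0.15, and on log2 of reads plus 1 that of NAT2 was 0.48. NAT1 was called higher with the RNA integrity covariate, at 0.90 (adjusted p = 0.0205).

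ADH4 and ADH6 oxidise alcohols, ADH4 also retinol, and both fell. ADH6 (ENSG00000172955.17, chromosome 4, 99202639 to 99219246) stood at 12.06, 12.35 and 12.15 in the controls and 10.47, 10.51 and 10.52 with GDF11. Its GDF11 values were nearly equal and far below the lowest control. ADH6 fell by 1.69 ± 0.14 (adjusted p = 9.07e-05), from 4585 ± 490.0 to 1359 ± 22.9 reads (SD, n = 3 each), a 3.37-fold lower level. ADH4 (ENSG00000198099.8, chromosome 4, 99123658 to 99144297) stood at 10.70, 10.75 and 11.07 in the controls and 9.83, 9.25 and 9.15 with GDF11, with GDF11 replicate 1 highest of the treated libraries. It fell by 1.43 ± 0.21 (adjusted p = 0.00164), and control reads were 2.89 times those with GDF11. Neither gene shares 75-base windows with another gene. An antisense gene, ENSG00000246090, overlaps both on the other strand and differed by -0.22 (adjusted p = 0.149).

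The classical ethanol dehydrogenase genes ADH1A, ADH1B and ADH1C, at 5.52 to 5.97 in the 6 libraries, did not pass the filter. ADH1B stood at 5.84, 5.94 and 5.97 in the controls, which is 2.20, 3.82 and 4.57 normalised reads, and was listed at the lowest value in the 3 GDF11 libraries. With no filter on low values it was called lower (-0.39, adjusted p = 0.0116).

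ALDH2, the mitochondrial acetaldehyde oxidising enzyme gene, stood at 12.88, 12.98 and 13.10 in the controls and 13.24, 13.22 and 13.27 with GDF11. These groups did not overlap, and the difference of 0.26 ± 0.14 was not called (adjusted p = 0.218), but was without control replicate 3 (0.31, adjusted p = 0.0474). ALDH1A1, a retinal oxidising enzyme gene, and ALDH3A2, for the fatty aldehyde dehydrogenase, were spread among the controls, with replicate 3 highest. ALDH3A2 stood at 12.97, 12.67 and 13.57 in the controls and 12.46, 12.53 and 12.49 with GDF11 and was not called (-0.58 ± 0.22, adjusted p = 0.0944). It was called lower without control replicate 2 (-0.78, adjusted p = 0.042) and with the RNA integrity covariate, at -1.15 (adjusted p = 0.0153), and its difference was -0.33 without control replicate 3. ALDH1A1 differed by -0.46 ± 0.20 (adjusted p = 0.13) and was called lower with that covariate at -0.94 (adjusted p = 0.0233). FMO5, a flavin monooxygenase gene of liver, was not called (-0.42 ± 0.15, adjusted p = 0.0771).

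Among the steroid enzymes, HSD17B2 (ENSG00000086696.11, chromosome 16, 82035253 to 82098534) fell. Its product oxidises estradiol and testosterone to less active ketones. HSD17B2 stood at 11.43, 11.86 and 11.10 in the controls and 8.92, 9.18 and 8.67 with GDF11. Every GDF11 library was far below the lowest control, which was replicate 3. The gene fell by 2.54 ± 0.22 (adjusted p = 0.000103), from 2803 ± 773 to 403 ± 86.3 reads (SD, n = 3 each), a 6.96-fold lower level. None of its windows occur in another gene.

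SRD5A1, a steroid reductase gene that forms dihydrotestosterone, stood at 8.87, 9.01 and 9.40 in the controls and 9.64, 9.57 and 9.52 with GDF11. It was not called (0.48 ± 0.17, adjusted p = 0.0735), and it was called higher without control replicate 3 (0.63, adjusted p = 0.00571). HSD17B6, HSD3B1 and SRD5A2 were too low to test. HSD17B6 had 8.86 ± 2.76 reads in the controls and 1.66 ± 1.68 with GDF11 (SD, n = 3 each), and SRD5A2 was at the lowest value in the 3 controls and in GDF11 replicate 2. PRIM1, which overlaps HSD17B6 on the other strand and had far more reads, differed by -1.11 (limma adjusted p = 0.00775). As for POR, whether reads were counted by strand is not known here.

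**Figure D4:**
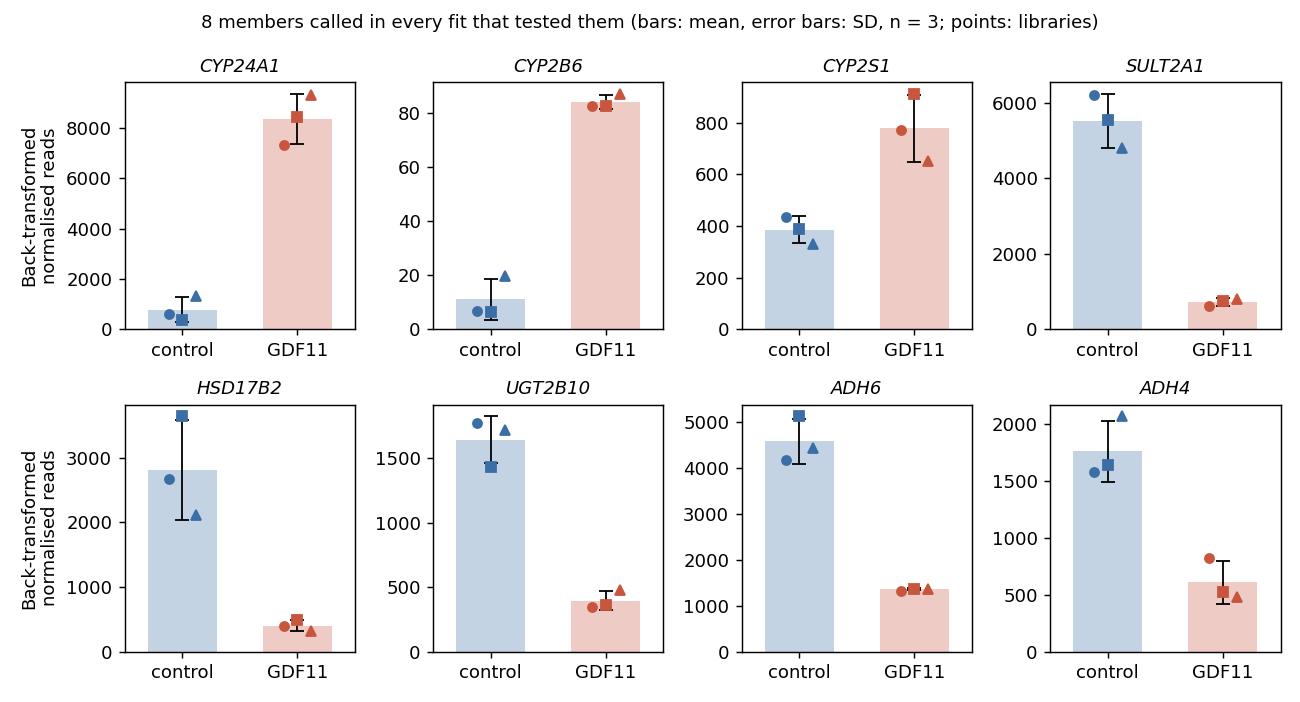
Back-transformed normalised reads of the 8 members called in every fit that tested them, by library (points), with the group mean (bar) and SD (error bar, n = 3), each panel on its own linear axis from 0. CYP24A1, CYP2B6 and CYP2S1 are higher with GDF11, and SULT2A1, HSD17B2, UGT2B10, ADH6 and ADH4 lower.

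Of the 20 called members, 12 kept their call whichever library was left out, and 8 kept it in every alternative fit that tested them. Those 8 are CYP24A1, CYP2B6, CYP2S1, SULT2A1, HSD17B2, UGT2B10, ADH6 and ADH4. CYP2B6 was below the stricter filter and has no value there. With the RNA integrity covariate 12 of the 20 calls ended and 3 others were gained, with no called gene changing direction. Over all tested genes, the calls went from 2185 higher and 2017 lower to 1149 and 721 in the same fit. As that number was lower on average with GDF11, this fit cannot fully separate it from treatment. On log2 of reads plus 1, which compresses low values less, the differences were larger for CYP3A4 (1.35), CYP39A1 (1.08) and CYP2D6 (-1.74) as well as for CYP2B6. The same held for CYP26B1 (3.95), SULT2B1 (2.63) and NR1I3 (-1.36).

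**Figure D5:**
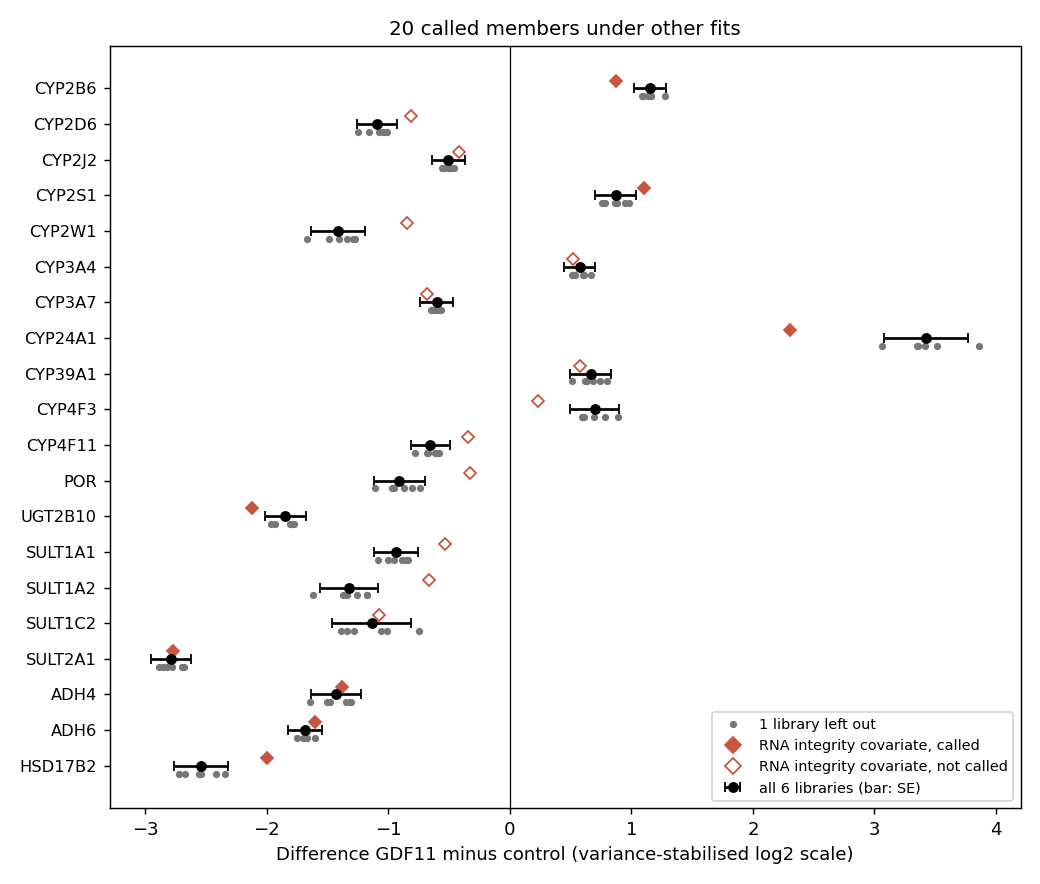
Difference GDF11 minus control of the 20 called members on the variance-stabilised log2 scale with all 6 libraries (black, bar SE), with 1 library left out (grey) and with the RNA integrity covariate (diamonds, filled where called). Every point keeps its sign, and 12 diamonds are open.

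The promoters of 3 of the lower members are shown with motif letters in capitals, as these genes fell most among the lower members found in the promoter table. SULT2A1 is from chr19:47886316-47886565, minus strand, UGT2B10 from chr4:68815744-68815993, plus strand, and ADH6 from chr4:99219247-99219496, minus strand.
SULT2A1: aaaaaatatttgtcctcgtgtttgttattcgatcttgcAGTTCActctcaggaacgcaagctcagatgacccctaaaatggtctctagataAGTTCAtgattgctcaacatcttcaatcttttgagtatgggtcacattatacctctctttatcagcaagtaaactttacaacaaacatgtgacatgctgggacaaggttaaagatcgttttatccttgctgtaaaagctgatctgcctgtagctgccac
UGT2B10: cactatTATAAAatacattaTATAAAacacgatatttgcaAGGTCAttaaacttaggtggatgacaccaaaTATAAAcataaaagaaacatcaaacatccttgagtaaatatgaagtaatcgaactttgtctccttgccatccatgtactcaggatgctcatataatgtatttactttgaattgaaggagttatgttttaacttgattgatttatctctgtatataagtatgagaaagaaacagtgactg
ADH6: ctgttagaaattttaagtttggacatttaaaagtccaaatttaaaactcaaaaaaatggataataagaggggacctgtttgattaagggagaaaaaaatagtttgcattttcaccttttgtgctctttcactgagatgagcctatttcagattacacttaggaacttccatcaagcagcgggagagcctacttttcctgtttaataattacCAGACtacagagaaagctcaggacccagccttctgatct
SULT2A1 holds AGTTCA at 212 and 159 bases before the start, UGT2B10 holds AGGTCA at 210 and TATAAA at 244, 230 and 179, and ADH6 holds CAGAC at 39. The 6 motifs, searched on both strands, were CAGAC (SMAD box), TGANTCA (AP-1), AGGTCA and AGTTCA (nuclear receptor elements), GCGTG (AHR core) and TATAAA. The promoters of UGT2B10 and UGT2B11 were identical in 229 of 254 aligned columns (90.2%).

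Promoters were found for 38 of the 50 members. AGGTCA was present in 3 of 5 higher, 3 of 9 lower and 5 of 24 other members, against 12.1% of all promoters. CAGAC was present in 1 of 5, 2 of 9 and 12 of 24, against 37.8%, and TGANTCA only in CYP4F3, against 6.60%. AGTTCA was present in 1 of 5, 2 of 9 and 2 of 24, against 8.91%. TATAAA was present in 2 of 5, 3 of 9 and 10 of 24, against 11.1%, and GCGTG in 0 of 5, 2 of 9 and 3 of 24, against 31.9%. No promoter was found for CYP1B1, CYP2D6, CYP24A1, POR, UGT2B4, SULT1A1, SULT1A2, NAT1, NAT2, ALDH2, HSD17B2 and HSD17B6.

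Relatives of the members in the same families, 95 genes that were matched and 62 that were tested, numbered 5 higher, 22 lower and 35 not called, with a median difference of -0.26. In shares, 8.06% were higher and 35.5% lower, against 11.7% and 10.8% of all tested genes. CYP26B1, a retinoic acid hydroxylase gene, went from 5.85, 5.86 and 6.55 to 7.54, 7.75 and 7.28 and rose by 1.44 ± 0.21 (adjusted p = 0.00158), with control replicate 3 above the other controls. Its call ended with the RNA integrity covariate at 1.08 (adjusted p = 0.066). SULT2B1, a cholesterol sulfotransferase gene, rose by 1.17 ± 0.12 (adjusted p = 0.000233), from 6.39, 6.30 and 6.39 to 7.64, 7.57 and 7.38. ALDH1L1, a folate enzyme gene, and ALDH6A1, of valine breakdown, fell by 2.40 ± 0.19 and 1.28 ± 0.14 (adjusted p = 5.95e-05 and 0.00032).

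Of 28 sensors and regulators 26 were tested: 5 rose, 10 fell and 11 were not called, with a median of -0.41. Those are 19.2% higher and 38.5% lower, against 11.7% and 10.8% of all tested genes. Besides VDR and NR1I2, the lowest p-values were those of NR1H4, for the bile acid receptor FXR, which fell by 1.57 ± 0.17 (adjusted p = 0.00036), and of ONECUT1, a hepatocyte factor gene, which fell by 0.93 ± 0.18 (adjusted p = 0.00666). HNF4A stood at 13.80, 14.01 and 13.84 in the controls and 13.53, 13.35 and 13.39 with GDF11 and was not called (-0.46 ± 0.15, adjusted p = 0.0536). It was called lower with the stricter filter, without a mean trend, with library weights, with the replicate block and without control replicate 3, at adjusted p of 0.0138 to 0.0447.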

How the data were processed

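Total RNA of 6 HepG2 cultures was sequenced as single 75-base reads from directional libraries, per the labels' protocols. The authors deposited variance-stabilised log2 values for 60240 genes. Trimmomatic, Salmon 1.2.1, DESeq2 and GRCh38 are named in the submitters' processing notes, and STAR 2.6 with hg19 in the labels' protocols, and which of them made the table is not given in these sources. Symbols were matched for 58349 IDs.

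Values were back-transformed to normalised reads by inverting the stabilising curve, and 71.1% to 74.2% of values of 20 reads or fewer were within 0.01 of a whole number, so no count test was run. Depth was estimated from the step of 1 read. Genes with a mean at least 0.5 above the lowest value entered a limma test (version 3.58.1, R 4.3.3, eBayes with a mean trend, two-sided, no covariate, Benjamini-Hochberg, threshold 0.05). The fit was also run on simulated data with noise independent between genes and libraries. Deviations shared over many genes, such as those of control replicate 3, were not simulated, so that run does not assess their effect. With 3 against 3 libraries, a p-value sets the difference against the spread between these cultures, moderated by a variance trend over all tested genes. Shared 75-base windows were counted in GENCODE v44lift37 transcripts, promoters are RefSeq's, and pairs were aligned with Biopython 1.88 (match 2, mismatch -1, gaps -5 and -1). The 11 alternatives covered scale, filter, variance prior, weights, RNA integrity, replicate block, threshold and left-out libraries. Values in every library are given for members called or differing by at least 0.5, and up to 4 genes of each further list, those with the lowest p, are named with at least their difference, plus AHR, NR1I2, NR1I3 and HNF4A. Partner, marker and low genes named besides were chosen after their values were seen. Members and lists were chosen with earlier results of these data known.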

Additional observations from a re-analysis of the deposited data

How the results depend on the processing

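The main counts were 6 members higher and 14 lower. They were 4 to 8 and 9 to 14 with 1 library left out (the fewest without control replicate 1 or GDF11 replicate 1). These counts were 4 and 7 with the RNA integrity covariate, and 3 and 9 at an adjusted p under 0.01. The median over members was -0.52 on log2 of reads plus 1, -0.12 without a filter (48 members), -0.54 with the stricter filter (28 members) and -0.45 to -0.27 with 1 library left out. Genes called higher and lower over the table were 4473 and 4554 with library weights, 1149 and 721 with the RNA integrity covariate, 1170 and 791 at 0.01, and 1364 to 3673 and 945 to 3990 with 1 library left out, the highest counts being without control replicate 3. With the replicate block 7 members were higher and 18 lower, and 3147 and 3306 genes. The replicate numbers were not taken to pair the libraries: deviations of same-numbered libraries correlated at -0.088, 0.38 and 0.48, and control replicate 1 correlated best with GDF11 replicate 2. Library weights added calls for 8 members and the block for 5, FMO5, SRD5A1, ALDH1A1, ALDH3A2 and UGT1A1 among both. No called member changed direction under any alternative. The cause of these changes was not tested. The 14 members averaging within 0.5 of the lowest value were not tested.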

Other observations

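Transport and hydrolysis genes, which act beside the enzymes above, were also counted. Of 21 uptake and efflux transporters 18 were tested, 2 rose, 7 fell and 9 were not called, with a median difference of -0.53. The share higher was 11.1% and the share lower 38.9%, against 11.7% and 10.8% of all tested genes. ABCG2, an efflux pump gene for drugs and sulfated steroids, went from 9.74, 9.79 and 9.85 to 8.37, 8.31 and 8.54 and fell by 1.39 ± 0.14 (limma, adjusted p = 0.000258). SLCO2B1, which takes up steroid sulfates, fell by 1.59 ± 0.15 (adjusted p = 0.000154), and SLC51B, a subunit of the bile acid and steroid exporter, by 1.72 ± 0.21 (adjusted p = 0.000627). SLC22A9, an organic anion carrier gene, fell by 1.21 ± 0.15 (adjusted p = 0.00071). Each of the 4 had GDF11 values below all controls.

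Of 27 hydrolases and other conjugation enzymes 23 were tested, 1 rose, 11 fell and 11 were not called, with a median of -0.49. Here 4.35% were higher and 47.8% lower, against 11.7% and 10.8% of all tested genes. EPHX2, the soluble epoxide hydrolase gene, went from 11.13, 11.44 and 10.999 to 9.57, 9.73 and 9.49 and fell by 1.60 ± 0.16 (adjusted p = 0.000265). AADAC, an esterase gene of liver, fell by 1.01 ± 0.12 (adjusted p = 0.00065) and DPYD, of pyrimidine and fluorouracil breakdown, by 0.99 ± 0.14 (adjusted p = 0.00126). PON2, a lactonase gene, rose by 1.03 ± 0.16 (adjusted p = 0.00266). On log2 of reads plus 1 the differences were -2.08 for AADAC, -1.75 for DPYD and -1.87 for SLC22A9.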
